A study of Mus musculus with 6 samples.

Results

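Complexes III, IV and V form the last part of the mitochondrial respiratory chain. Complex III passes electrons from ubiquinol to cytochrome c, complex IV (cytochrome c oxidase) passes them on to oxygen, and complex V (ATP synthase) uses the proton gradient built on the way to make ATP. Most of their subunits are encoded in the nucleus and have to be made in step with the few encoded in mitochondrial DNA, and in the adult heart, which takes most of its ATP from this pathway, their mRNAs are abundant. The genes described here were chosen by name: the Uqcr genes and Cyc1 for complex III, Cycs for cytochrome c, Cox5a, Cox5b, Cox6b1, Cox6b2, Cox6c, Cox7b and Cox7c for complex IV, and the Atp5 genes for complex V, leaving out names that mark a pseudogene. This gave 34 of the 34745 genes in the table: 9 of complex III, 1 for cytochrome c, 7 of complex IV, 15 of complex V, and 2 (Atp5s and Atp5sl) whose names match although neither product is a core subunit of the synthase. 33 of the 34 had enough counts to be tested.

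The samples were RNA-seq libraries of whole left ventricle from wild-type male C57BL/6 mice, with an age of 8 weeks in the labels. The group labelled TAC had undergone transverse aortic constriction, a ligature on the aortic arch that makes the left ventricle pump against a raised pressure, and the group labelled Sham the same surgery without the ligature. Tissue was taken at week 6, each group has 3 libraries, and total gene counts ran from 17399510 to 28401399. The labels do not say that each library is a separate mouse, so the tests measure the spread between libraries, which may be technical. The comparison asks which genes differ between a pressure-overloaded and a sham-operated ventricle.

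The marker genes went against the group labels. Nppa, the atrial natriuretic peptide gene known to rise in the overloaded ventricle, stood at 92.3, 64.3 and 95.2 CPM (counts relative to the scaled library total) in TAC 1, 2 and 3 but at 773, 1895 and 595 CPM in Sham 1, 2 and 3. Acta1, the skeletal actin gene of the fetal programme, was higher by 9.41-fold under the Sham label (edgeR adjusted p = 0.0448), and Nppb had a log2 difference, labelled TAC minus labelled Sham, of -1.59 (adjusted p = 0.191). Myh7 was at 212, 65.7 and 6055 CPM in TAC 1, 2 and 3 and at 1818, 6328 and 2074 CPM in Sham 1, 2 and 3, so TAC 3 stood apart from its group there. Every direction below is therefore that of the labels alone, and each library is called by its label.

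Each of the 33 tested genes was estimated higher under the TAC label, from 1.05-fold (Uqcrc2) to 1.54-fold (Cox6c), and 1 of them, Cox6c, passed the test. The median log2 difference was 0.33, against 0.01 over all 15198 genes tested. A positive estimate was found for 50.9% of all genes tested and for 51.4% of the 5560 genes with a mean of at least 500 counts, 28 of which are members. By edgeR's quasi-likelihood test at an adjusted p under 0.05, 1.43% of all genes were called, and 0.322% were called as higher in the libraries labelled TAC, so 1 of 33 members is the number to read against that share. At an unadjusted p under 0.05, 18 of the 33 (54.5%) were higher in the libraries labelled TAC, against 9.56% of all genes tested. In 21 of the 33 (63.6%) every library labelled TAC lay above every library labelled Sham, against 13.4% of all genes tested. DESeq2 called 10 of the 33, all higher in the libraries labelled TAC, against 2.98% of the genes it tested: Uqcrc1, Uqcrh, Uqcr11, Cox6c, Cox7b, Atp5b, Atp5c1, Atp5h, Atp5j and Atp5g3.

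The estimates lay close together. The quartiles of the members were 0.27 and 0.41 on the log2 scale and their SD was 0.11, against an SD of 0.54 over all genes tested and of 0.41 over the genes with at least 500 counts. Members share the same 6 libraries and are not replicates of each other, so this closeness is a description of these libraries. Across the 33 genes the log2 difference had a Spearman's rho of -0.03 with the FPKM and 0.06 with the mean count (the points share libraries and depth). The plot of the members by library shows the libraries behind these estimates.

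**Figure D1:**
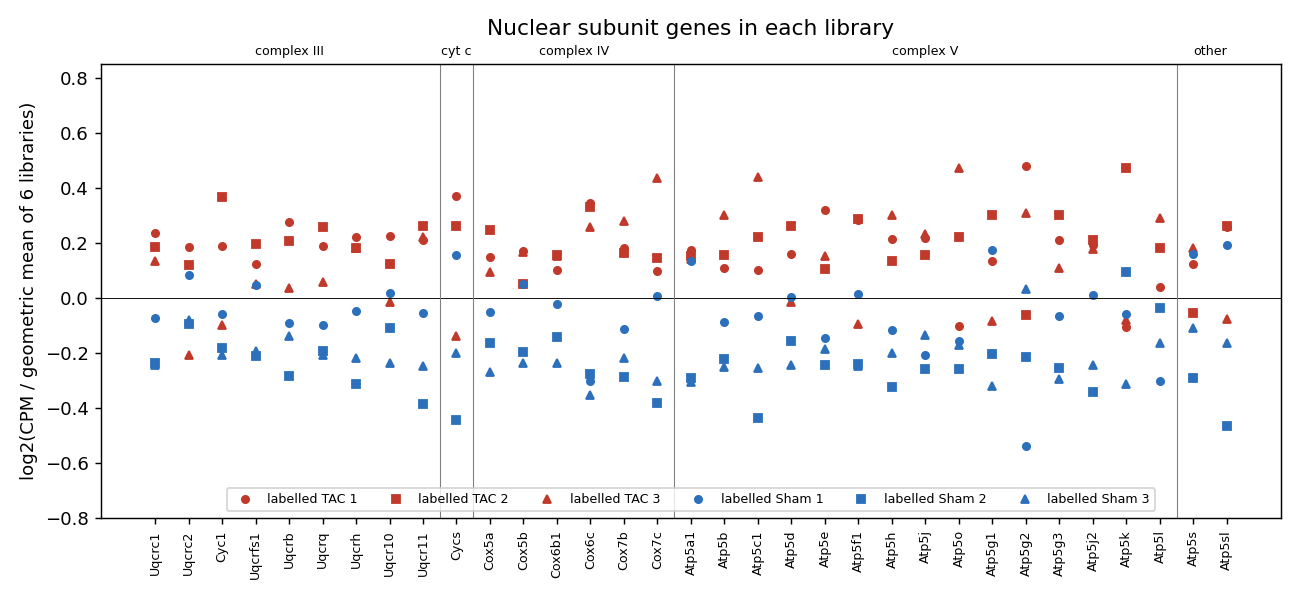
Log2 of each tested member's CPM relative to its geometric mean over the 6 libraries (y axis) for each gene (x axis), with red for libraries labelled TAC, blue for libraries labelled Sham and a symbol for each replicate. The highest library was labelled TAC for all 33 genes, and in 21 the 2 colours do not overlap.

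The libraries of each group were not equal. For every tested member the highest of the 6 libraries was one labelled TAC, namely TAC 1 for 11 genes, TAC 2 for 13 and TAC 3 for 9. Among the libraries labelled Sham, Sham 1 was the highest for 28 of the 33, and the lowest library of all was Sham 2 or Sham 3 for 15 genes each. Summed over the 34 genes, the level was 12167, 12379 and 12229 CPM in TAC 1, 2 and 3 but 10655, 9179 and 9172 CPM in Sham 1, 2 and 3. By this sum the 3 libraries labelled TAC were within a narrow range of each other, while Sham 1 lay between them and the other 2. The genes with the most counts weigh most in it. Gene by gene, TAC 3 was the lowest of the libraries labelled TAC for 18 of the 33. The sum over complex III was 2970.3, 2940.4 and 2587 CPM in TAC 1, 2 and 3 and 2559 CPM in Sham 1, so TAC 3 was close to Sham 1 there.

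In complex III, none of the 9 genes passed edgeR's test. 5 had an unadjusted p under 0.05, and DESeq2 called 3. All 9 estimates were positive, with a median log2 difference of 0.33 and a range from 0.07 to 0.45, and the smallest adjusted p was 0.103. In 6 of the 9 the groups did not overlap.

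The core proteins, which lie on the matrix side of the complex and are related to processing peptidases, differed from each other in estimate. Uqcrc1 had 880.1, 849.5 and 820.4 CPM in TAC 1, 2 and 3 but 710.3, 634 and 630.3 CPM in Sham 1, 2 and 3. Its lowest library labelled TAC lay above its highest library labelled Sham (log2 difference 0.37, SE 0.11, adjusted p = 0.127; DESeq2 adjusted p = 0.0356). Uqcrc2 had 779.5, 744 and 593 CPM against 726, 642 and 649 CPM. TAC 3 was the lowest of all 6 libraries for Uqcrc2, the one member of which this is true, and its log2 difference was 0.07 (SE 0.14, adjusted p = 0.811). Leaving out 1 library gave -0.01 without TAC 1, 0.03 without TAC 2, 0.18 without TAC 3, 0.13 without Sham 1 and 0.04 without Sham 2. The difference between the 2 genes was not tested.

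The redox subunits carry the electrons. Cyc1, the cytochrome c1 gene, had 230.1, 260.4 and 189 CPM under the TAC label and 194, 178 and 175 CPM under the Sham label, where TAC 3 fell below Sham 1 (log2 difference 0.31, SE 0.14, adjusted p = 0.241). Without TAC 2 that difference was 0.20. Uqcrfs1, which encodes the Rieske iron-sulfur protein, had 387, 407 and 368 CPM against 367, 307 and 311 CPM. TAC 3 and Sham 1 were nearly equal for it (log2 difference 0.24, SE 0.11, adjusted p = 0.283).

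Of the small subunits, which surround the catalytic core, Uqcr11 had the largest estimate of the complex. It had 39.9, 41.3 and 40.2 CPM under the TAC label and 33.2, 26.4 and 29 CPM under the Sham label (log2 difference 0.45, SE 0.12, adjusted p = 0.103; DESeq2 adjusted p = 0.0397). Uqcrh, the acidic hinge protein gene, had 112, 109 and 109 CPM against 93.1, 77.4 and 82.5 CPM (log2 difference 0.39, SE 0.11, adjusted p = 0.110). Its libraries labelled TAC were close to each other and all above those labelled Sham. Uqcrq, which sits beside the cytochrome b subunit, had 138, 145 and 126 CPM against 113, 106 and 105 CPM (log2 difference 0.33, SE 0.10, adjusted p = 0.131). Uqcrb followed at a log2 difference of 0.35 (SE 0.11, adjusted p = 0.145) with no overlap, and Uqcr10 at 0.22 (SE 0.11, adjusted p = 0.317) with overlap between TAC 3 and Sham 1.

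Cycs, the gene of somatic cytochrome c, which carries electrons from complex III to complex IV, had 34.3, 31.8 and 24.1 CPM under the TAC label and 29.6, 19.5 and 23.1 CPM under the Sham label. The groups overlapped, with Sham 1 above TAC 3, and the log2 difference was 0.32 (SE 0.19, adjusted p = 0.383), with 0.50 without Sham 1 and 0.19 without Sham 2.

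In complex IV, 1 of the 6 tested genes passed and all 6 were positive, with a median log2 difference of 0.37 and a range from 0.25 to 0.62. Cox6c, a small subunit that crosses the inner membrane, had 660.3, 653 and 621 CPM in TAC 1, 2 and 3 (645 ± 21, SD, n = 3) and 421, 429 and 407 CPM in Sham 1, 2 and 3 (419 ± 11.4). Both groups were tight and lay far apart, and Sham 1 was not above the other libraries of its group as it was for most members. Cox6c was higher in the libraries labelled TAC by a log2 difference of 0.62 (SE 0.10, 1.54-fold), with an adjusted p of 0.0391 in edgeR. The next largest log2 difference among the 33 was 0.50. The call was lost without any 1 of 5 libraries (adjusted p = 0.123, 0.117 and 0.0723 without TAC 1, 2 and 3, and 0.108 and 0.129 without Sham 2 and 3) or when the replicate number was a block (adjusted p = 0.124), while the log2 difference stayed between 0.55 and 0.65 over all 16 alternatives.

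The deposited locus of Cox6c (chromosome 15, 35925886 to 35938246 on GRCm38) spans 12361 bases, against 6271 bases in RefSeq, and shares 5343 bases with Vps13b. Vps13b had 117, 117 and 116 CPM under the TAC label and 121, 101 and 116 CPM under the Sham label (log2 difference 0.05, SE 0.11, adjusted p = 0.818). How reads in the shared stretch were assigned is not stated. The level of Vps13b was far under that of Cox6c and did not separate the groups. What shared reads add to the Cox6c row cannot be seen from the Vps13b row and was not tested.

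The other membrane-spanning subunits had the next largest estimates of the complex. Cox7b, which is on the X chromosome, had 311, 307 and 333 CPM under the TAC label and 254, 225 and 236 CPM under the Sham label (log2 difference 0.41, SE 0.10, adjusted p = 0.0936; DESeq2 adjusted p = 0.0161). Its groups did not overlap. Cox7c had 7.6, 7.84 and 9.61 CPM against 7.13, 5.44 and 5.76 CPM (log2 difference 0.45, SE 0.18, adjusted p = 0.207), again without overlap but from a mean of only 152 counts. The matrix-side subunits came lower: Cox5a, which binds a regulatory thyroid hormone metabolite, had a log2 difference of 0.32 (SE 0.11, adjusted p = 0.150) and Cox5b, the zinc-binding subunit, 0.25 (SE 0.12, adjusted p = 0.286).

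Cox6b1 and Cox6b2 encode alternative forms of a subunit that faces the intermembrane space, Cox6b2 being known as the testis form. Cox6b1 had 282, 293 and 292 CPM under the TAC label and 259, 238 and 223 CPM under the Sham label (log2 difference 0.27, SE 0.10, adjusted p = 0.198). Cox6b2 had 9, 11 and 10 counts under the TAC label and 8, 2 and 0 under the Sham label, too few for a test. The ubiquitous form was thus the one detected at a useful depth.

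In complex V, none of the 15 genes passed edgeR's test. 8 had an unadjusted p under 0.05, and DESeq2 called 5. All 15 were positive, with a median log2 difference of 0.38 and a range from 0.20 to 0.50, and in 10 the groups did not overlap. The smallest adjusted p was 0.0798. The plot of fitted differences sets the 3 complexes side by side.

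**Figure D2:**
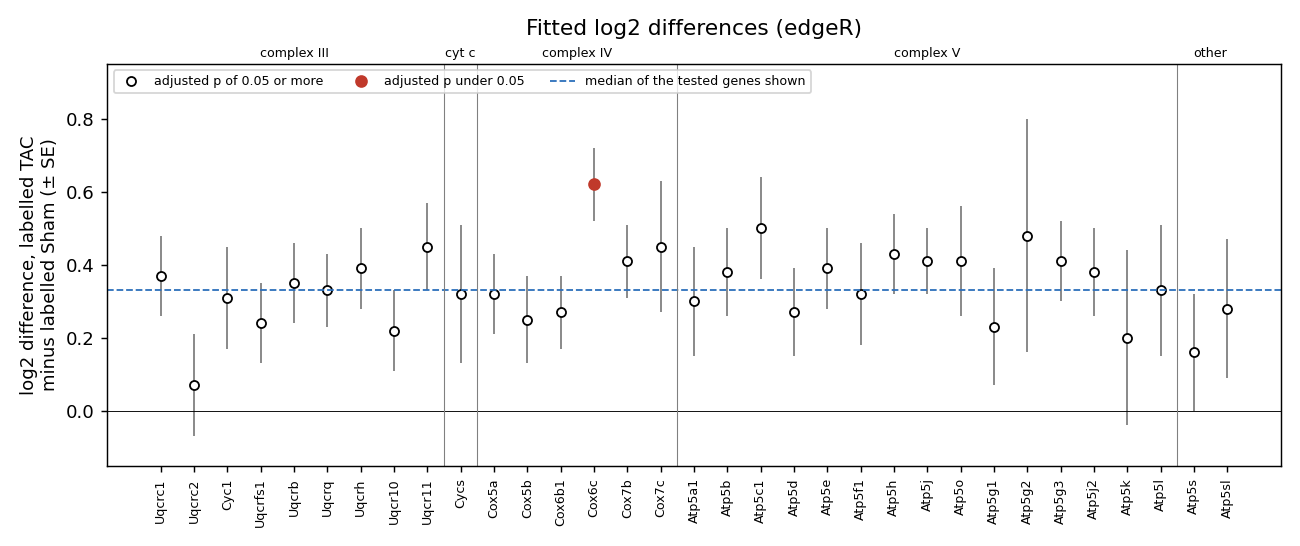
Fitted log2 difference, labelled TAC minus labelled Sham (y axis, bars are ± 1 SE), for each tested member (x axis), grouped by complex. Cox6c, the filled point at 0.62, is the one past an adjusted p of 0.05, and the dashed line marks the median of the 33 genes, 0.33.

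The F1 head makes ATP, and a central stalk turns inside it. Atp5b, the catalytic beta subunit and the member with the most counts (a mean of 55172 per library), had 2792, 2888 and 3196 CPM under the TAC label and 2439, 2219.6 and 2175 CPM under the Sham label. Its groups did not overlap (log2 difference 0.38, SE 0.12, adjusted p = 0.152; DESeq2 adjusted p = 0.0425). Atp5a1, the alpha subunit that alternates with beta in the head, had 2284, 2248 and 2229.6 CPM against 2221, 1652 and 1638 CPM. Sham 1 lay almost at the level of the libraries labelled TAC, and the log2 difference was 0.30 (SE 0.15, adjusted p = 0.314).

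Atp5c1, the gamma subunit that forms the rotating shaft, had 325, 353 and 411 CPM under the TAC label and 289.7, 224 and 254 CPM under the Sham label. TAC 3 was its highest library, the groups did not overlap, and its log2 difference of 0.50 (SE 0.14, adjusted p = 0.114; DESeq2 adjusted p = 0.0329) was the largest of the complex. Atp5e, the epsilon subunit at the foot of the shaft, had 46.7, 40.2 and 41.6 CPM against 33.8, 31.6 and 32.9 CPM (log2 difference 0.39, SE 0.11, adjusted p = 0.114). Atp5d, the delta subunit beside it, had a log2 difference of 0.27 (SE 0.12, adjusted p = 0.253), and TAC 3 fell below Sham 1.

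The peripheral stalk holds the head still while the shaft turns. Atp5j, the F6 subunit, had the smallest p of the complex, with 188, 179.9 and 190 CPM under the TAC label and 139.8, 135 and 147 CPM under the Sham label (log2 difference 0.41, SE 0.09, adjusted p = 0.0798; DESeq2 adjusted p = 0.0109). Atp5h, the d subunit, had 244, 231 and 259 CPM against 194, 168 and 183 CPM (log2 difference 0.43, SE 0.11, adjusted p = 0.0894; DESeq2 adjusted p = 0.0160). In both genes the groups lay clearly apart. Atp5o, the subunit that links stalk and head (OSCP), had 439.7, 551 and 655 CPM against 423, 395 and 419 CPM. Its libraries labelled TAC were widely spread, with TAC 1 close to Sham 1, and the log2 difference was 0.41 (SE 0.15, adjusted p = 0.188), or 0.27 without TAC 3. Atp5f1, the b subunit, had a log2 difference of 0.32 (SE 0.14, adjusted p = 0.251), with TAC 3 at 390.2 CPM below Sham 1 at 420.4 CPM.

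Neighbouring genes overlap some of these loci. Atp5j shares 701 bases with Gabpa, whose level of 57.9 to 78.9 CPM did not separate the groups (log2 difference 0.15, SE 0.13, adjusted p = 0.544). The deposited locus of Atp5o spans 247290 bases on chromosome 16, against 6408 bases in RefSeq, and takes in most of Itsn1 (log2 difference 0.03, SE 0.11, adjusted p = 0.905). With Cox6c, these were the 3 members that overlapped a gene with at least 10% of their own mean count, and 8 members overlapped some other gene of the table. What shared reads add to the rows of these members was not tested.

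The ring of c subunits turns in the membrane as protons pass. Atp5g1, Atp5g2 and Atp5g3 encode the same mature c subunit behind different import sequences. Atp5g3 had 254, 271 and 237 CPM under the TAC label and 210, 184 and 179 CPM under the Sham label (log2 difference 0.41, SE 0.11, adjusted p = 0.109; DESeq2 adjusted p = 0.0370). Its groups did not overlap. Atp5g1 had 148, 166 and 127 CPM against 152, 117 and 108 CPM, with overlapping groups (log2 difference 0.23, SE 0.16, adjusted p = 0.463). That value was 0.39 without Sham 1 and 0.13 without TAC 2 or without Sham 3. Atp5g2 had 13 to 26 counts per library (log2 difference 0.48, SE 0.32, adjusted p = 0.431), a mean of 19.5.

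The share of Atp5g1 in the summed FPKM of these 3 genes was 14.8%, 15.4% and 13.7% under the TAC label and 17.8%, 15.9% and 15.1% under the Sham label. The means were 14.6% ± 0.851 and 16.3% ± 1.35 (SD, n = 3), a difference of -1.63 percentage points, and TAC 2 lay above Sham 3 (two-sided exact permutation test, p = 0.20, where 3 against 3 cannot go below 0.10). Without Sham 1 the difference was -0.878 points. Atp5g3 made up 81.9% to 85.7% and Atp5g2 0.337% to 0.603%. By CPM, which does not divide by length, the share of Atp5g1 was 34.8% to 42%, so the balance between the 2 main genes depends on the lengths used, while a shift between the groups was not shown on either scale.

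The small membrane subunits hold the dimer of the synthase together. Atp5j2, the f subunit, had 63.1, 63.9 and 62.5 CPM under the TAC label and 55.6, 43.5 and 46.6 CPM under the Sham label (log2 difference 0.38, SE 0.12, adjusted p = 0.138). Atp5l, the g subunit, had 65 to 109 counts (log2 difference 0.33, SE 0.18, adjusted p = 0.338), and Atp5k, the e subunit, 50 to 102 (log2 difference 0.20, SE 0.24, adjusted p = 0.680; -0.01 without TAC 2 and 0.10 without Sham 3). Atp5l and Atp5k have pseudogene rows in the table, which the choice by name left out. Atp5l2-ps held 52 to 87 counts (a mean of 70.2, against 84.7 for Atp5l), while Atp5l-ps1 held 13 to 33, Atp5k-ps2 1 to 4, and Atp5l-ps2 1 count in all. Reads shared between a gene and its copies could have been split or dropped, so the levels of Atp5l and Atp5k are uncertain.

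Atp5s and Atp5sl, which carry Atp5 names without being core subunits, had log2 differences of 0.16 (SE 0.16, adjusted p = 0.612) and 0.28 (SE 0.19, adjusted p = 0.436). Their groups overlapped. Without Sham 1 these values were 0.29 and 0.46, and without Sham 2 they were 0.06 and 0.13.

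The level per length was given by the deposited FPKM values, shown in the plot of levels. In complex III the mean over 6 libraries ran from 31.5 FPKM (Uqcr11) to 262 FPKM (Uqcrfs1). In complex IV it ran from 4.09 (Cox7c) to 522 (Cox6b1) among the tested genes, and in complex V from 0.438 (Atp5g2) to 387 (Atp5a1), with Atp5b close behind at 377. Atp5a1 and Atp5b, of which the head holds equal numbers, were thus near each other, while Cox5a (323 FPKM) and Cox5b (10.7 FPKM), which occur once each per complex, were not. Cox5a and Cox5b also lay apart by CPM, which does not divide by length. Their means were 249 and 29.4 CPM under the TAC label and 199 and 24.7 CPM under the Sham label. The cause of that gap was not tested. The lengths used by the authors limit such comparisons of FPKM. They ran from 505 to 9797 bases, and for 4 genes, Cox5b, Cox6b2, Atp5g1 and Atp5g3, the length was greater than the whole span of the deposited locus.

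**Figure D3:**
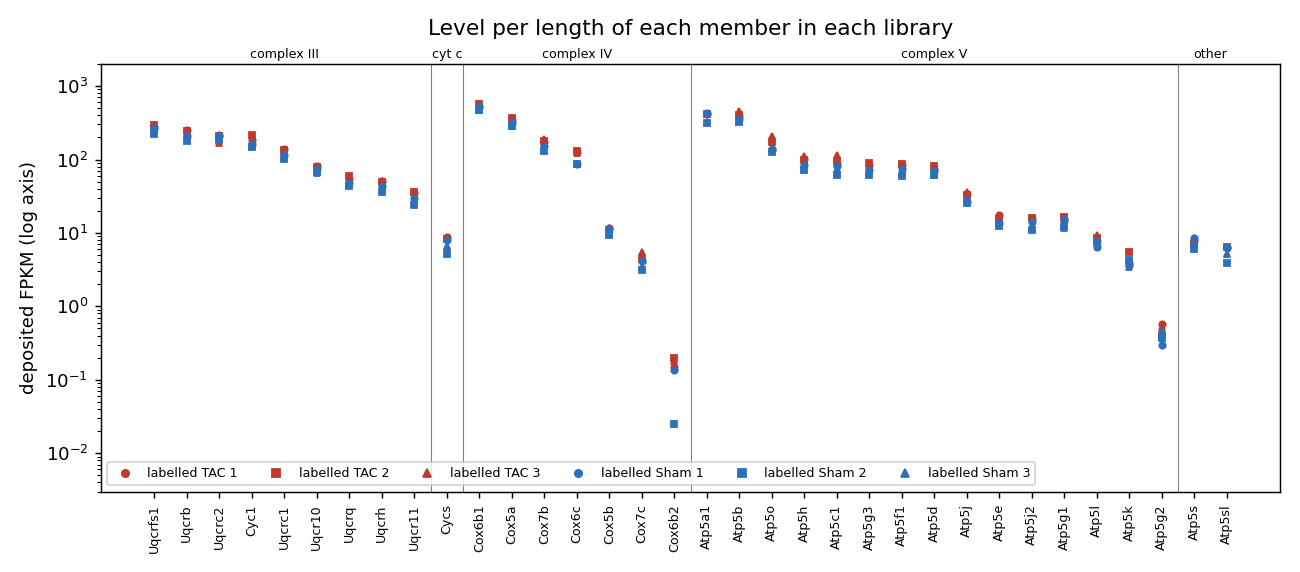
Deposited FPKM (y axis, log scale) of each of the 34 genes (x axis, ordered by mean level within each complex) in each library, red for labelled TAC and blue for labelled Sham, with a symbol for each replicate. The spread between genes of a complex, from 4.09 (Cox7c) to 522 FPKM (Cox6b1) among the tested genes of complex IV, was far larger than that between libraries, and Cox6b2, listed at 0 in Sham 3, has no point there.

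Set side by side, the 3 complexes had medians of 0.33 (III), 0.37 (IV) and 0.38 (V) on the log2 scale. A relative level was computed for each library as the mean over a complex's genes of the log2 CPM against each gene's mean over the 6 libraries. For complex III it was 0.20, 0.21 and 0.04 in TAC 1, 2 and 3 and -0.03, -0.22 and -0.20 in Sham 1, 2 and 3. For complex IV it was 0.17, 0.18 and 0.23 against -0.07, -0.24 and -0.27. For complex V it was 0.16, 0.21 and 0.18 against -0.09, -0.23 and -0.22. The complexes ran together in 5 of the libraries, and in TAC 3 complex III was lower than complexes IV and V, by 0.19 and 0.14. In the other 5 libraries the same 2 contrasts lay between -0.07 and 0. Whether the complexes differ was not tested, since their genes share the libraries.

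Companion genes gave a second view of the same pathway. Of the 4 genes of complex II, which feeds electrons to ubiquinone from succinate, all were positive and none passed edgeR (3 had an unadjusted p under 0.05). Their median log2 difference was 0.40, led by Sdha at 0.56 (SE 0.12) and Sdhc at 0.43 (SE 0.10). Among 10 other cytochrome oxidase genes, 7 were positive and Cox7a1, the heart and muscle form of subunit 7a, passed (log2 difference 0.69, SE 0.10, adjusted p = 0.0321). Of the 10, 6 had an unadjusted p under 0.05 and a positive estimate. Cox8a was at -0.02 (SE 0.10, adjusted p = 0.921) and Cox4i2, a form tied to low oxygen, at -0.46 (SE 0.25, adjusted p = 0.343). Cox6a1 was at -0.15 (SE 0.16, adjusted p = 0.641). Cox8b, Cox4i1 and Cox6a2, other forms of the same subunits, were at 0.38, 0.33 and 0.27. Within complex IV the estimates were thus not positive for every subunit gene, but no negative one passed edgeR's test.

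The estimates of the mitochondrially encoded partners overlapped those of the nuclear genes in complexes III and IV and lay below the lowest of them in complex V; the difference was not tested. For complex III, mt-Cytb was at 0.18 (SE 0.16, adjusted p = 0.570). For complex IV, mt-Co1, mt-Co2 and mt-Co3 were at 0.25 (SE 0.17), 0.24 (SE 0.14) and 0.27 (SE 0.15). For complex V, mt-Atp6 and mt-Atp8, which overlap in the mitochondrial genome, were at 0.06 (SE 0.19) and 0.11 (SE 0.16). None of the 6 had an unadjusted p under 0.05. The nuclear genes of complex V less their mitochondrial partners stood, as relative log2 levels, at 0.17, -0.14 and 0.41 under the TAC label and at -0.22, -0.04 and -0.18 under the Sham label. TAC 2 lay among the Sham values in this contrast. For complex III the same contrast was 0.09, -0.08 and 0.19 in TAC 1, 2 and 3, against -0.08, -0.02 and -0.10 in Sham 1, 2 and 3, again with TAC 2 among the Sham values. For complex IV it was 0.01, -0.03 and 0.22 against -0.07, -0.06 and -0.08, where the groups did not overlap.

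**Figure D4:**
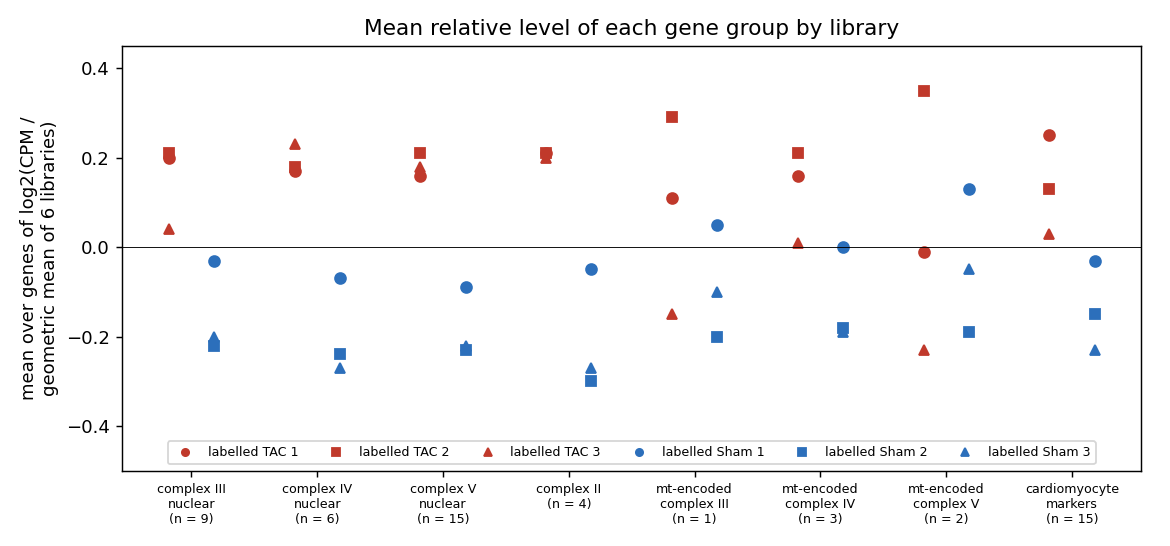
Mean over genes of log2 CPM relative to each gene's geometric mean over 6 libraries (y axis) for 8 groups of genes (x axis, n is the number of genes), red for labelled TAC, blue for labelled Sham, with a symbol for each replicate. The nuclear genes of complexes III, IV and V, complex II and the cardiomyocyte markers separate the labelled groups, while mt-encoded genes of complexes III and V overlap.

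Assembly factors, which build the complexes without staying in them, included none that passed edgeR. For complex III, 5 of 6 were positive (median log2 difference 0.16; none with an unadjusted p under 0.05), with Uqcc3 at -0.37 (SE 0.17). For complex IV, 17 of 21 were positive (median 0.09; 3 with an unadjusted p under 0.05), with Lrpprc, a regulator of mitochondrial mRNA stability, at 0.43 (SE 0.12) and Cox20 at 0.35 (SE 0.13). For complex V, all 4 were positive (median 0.21; none with an unadjusted p under 0.05), with Tmem70 at 0.26 (SE 0.13). The medians of all 3 lists lay below those of the subunits they serve; that difference was not tested.

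Of 7 genes for the passage of ATP, ADP and phosphate across the mitochondrial membranes (3 Slc25a carriers, 3 Vdac channels and the mitochondrial creatine kinase Ckmt2), 6 were positive (median log2 difference 0.27, none passing edgeR and 2 with an unadjusted p under 0.05). Slc25a4, the heart form of the ADP/ATP carrier, was at 0.39 (SE 0.11) and Slc25a3, the phosphate carrier, at 0.43 (SE 0.16). Of 11 transcriptional regulators, 10 were positive (median 0.36, none passing edgeR and 5 with an unadjusted p under 0.05). Ppargc1a, a coactivator of respiratory genes, had 434, 339.7 and 379.8 CPM under the TAC label and 265, 167 and 194 CPM under the Sham label (log2 difference 0.88, SE 0.19). Ppargc1b was at 0.72 (SE 0.14), Nrf1 at 0.44 (SE 0.16), Gabpa at 0.15 (SE 0.13) and Yy1 at -0.06 (SE 0.11).

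Markers of cardiomyocytes, fibroblasts and macrophages moved with the labelled groups. The summed levels of endothelial, pericyte and smooth muscle, erythroid and adipocyte markers overlapped. A sum does not show the direction of single genes, which is given below for these lists. Of 15 cardiomyocyte markers, 13 were positive with a median log2 difference of 0.32, close to the 0.33 of the members, and 8 had an unadjusted p under 0.05 in that direction and 1 in the other. Tnni3, cardiac troponin I, was at 0.63 (adjusted p = 0.0568) and Ryr2, the calcium release channel, at 0.52 (adjusted p = 0.128). Their relative level was 0.25, 0.13 and 0.03 under the TAC label and -0.03, -0.15 and -0.23 under the Sham label. The members less these markers stood at -0.06, 0.07 and 0.10 against -0.02, -0.09 and 0.01, so this contrast did not separate the groups. The summed level of the 10 fibroblast markers was 1682 to 1956 CPM under the TAC label and 2906 to 3729.9 CPM under the Sham label, with all 10 estimates negative, 1 of them, Col1a2 at -1.47 (adjusted p = 0.0459), past edgeR's test. That of the 10 activated fibroblast markers was 224 to 408 against 1287 to 2846 CPM. Of these, 7 passed edgeR's test, all higher in the libraries labelled Sham, against 168 of all 15198 genes tested. In the other direction, 1 estimate was positive, that of Acta2 at 0.71 (SE 0.23, adjusted p = 0.145).

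The 10 macrophage markers summed to 181 to 328 CPM under the TAC label and 415 to 450.2 CPM under the Sham label, with all 10 estimates negative and none passing. The summed levels of the 10 endothelial markers overlapped (1342 to 1393 and 1223 to 1405 CPM). Of those 10 estimates 3 were positive. Kdr at 0.56 (SE 0.14, edgeR adjusted p = 0.0912) alone had an unadjusted p under 0.05. The sums of the 5 erythroid markers also overlapped (274 to 594 and 267 to 346 CPM). All 5 erythroid estimates were positive (0.41 to 0.55), none with an unadjusted p under 0.05. The sums of the 8 pericyte and smooth muscle markers overlapped too (1665 to 2076 and 1500.5 to 1855 CPM). Rgs5, at 811 to 1178 CPM, made up much of the pericyte and smooth muscle sum (log2 difference 0.02). Of those 8 genes, 4 had an unadjusted p under 0.05 with higher levels under the Sham label (Cnn1 at -1.04). In the other direction there was 1, and none passed edgeR's test. Their relative level was -0.17, -0.07 and -0.12 under the TAC label and 0.14, 0.15 and 0.07 under the Sham label, without overlap. The 5 adipocyte markers summed to 18.2 to 20.4 and 20.1 to 21.6 CPM, nearly all of it from Cidea. It was the 1 gene of the list that was tested (log2 difference -0.17, SE 0.11, adjusted p = 0.426). Its libraries labelled Sham all lay above those labelled TAC, and the other adipocyte markers reached at most 1.22 CPM. Of 6 skeletal muscle markers 2 were tested, Acta1 and Ckm (log2 difference 0.43), and Myh4 was at 0 in all libraries; no marker of the other lists was. In bulk tissue, fewer cells of a type and less RNA per cell cannot be told apart, and the part of cell content in the members' differences was not tested.

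The promoters of the members could be read for 28 of the 34 genes, 250 bases before to 50 after the RefSeq start (GRCm38.p6). They were searched on both strands for short motifs of 5 regulators known for respiratory genes. NRF1 (GCGCATGCG) matched in 6 of the 28 (21.4%), against 1.95% of all 27025 genes with a promoter. GABP (CCGGAAGT) matched in 3 (10.7% against 4.31%), YY1 (AAGATGGCG) in 3 (10.7% against 1.64%), the cyclic AMP response element (TGACGTCA) in 2 (7.1% against 2.03%) and the ERR motif (TCAAGGTCA) in 1 (3.6% against 0.47%). A match is a description of the letters and shows no binding. The NRF1 matches were in Atp5g2, Atp5k, Atp5l, Cycs, Uqcr11 and Uqcrc1. Those of YY1 were in Atp5j (at its second start site only), Atp5j2 and Atp5sl, which is not a core subunit. The complex IV members with a promoter, Cox5a, Cox5b, Cox6b1, Cox6b2, Cox7b and Cox7c, matched none of the 5 motifs.

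The stretches below are those with a match upstream of the start among the 4 members of smallest p in each complex, and that of Cycs, long studied for both of its motifs. Each runs 5′ to 3′ on the gene's strand, here always the minus strand, with the match on either strand in capitals. They lie at chr4:116075071-116075106 (Uqcrh), chr10:80406855-80406912 (Uqcr11), chr11:115419926-115419983 (Atp5h), chr16:84835031-84835089 (Atp5j, second start site), chr2:73911345-73911403 (Atp5g3) and chr6:50566597-50566655 and chr6:50566706-50566763 (Cycs).
Uqcrh, GABP: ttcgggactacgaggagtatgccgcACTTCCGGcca
Uqcr11, GABP: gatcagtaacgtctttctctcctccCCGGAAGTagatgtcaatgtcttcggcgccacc
Atp5h, GABP: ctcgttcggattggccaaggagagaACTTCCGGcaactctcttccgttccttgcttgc
Atp5j, YY1: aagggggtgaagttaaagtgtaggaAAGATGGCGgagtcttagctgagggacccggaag
Atp5g3, ERR: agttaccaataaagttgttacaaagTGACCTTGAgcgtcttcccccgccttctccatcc
Cycs, NRF1: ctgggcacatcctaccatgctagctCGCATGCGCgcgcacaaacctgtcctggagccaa
Cycs, CRE: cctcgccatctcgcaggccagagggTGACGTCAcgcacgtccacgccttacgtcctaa

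The promoter of Cox6c, the gene that passed, was not used here.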

How the data were processed

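RNA-seq was done on 3 libraries labelled TAC and 3 labelled Sham. Total RNA was purified with a column kit and DNase and made into total RNA libraries, per the labels' protocols. Per the submitters' processing notes, HISAT2 2.0.4, StringTie 1.3.0 and GRCm38 (mm10) were used. Which step each served, the counting program, strand setting and annotation version: not given in the sources used here. The deposited gene table holds whole-number counts and FPKM for each library, per the file headers. The deposited FPKM divide the count by one length per gene and the library total. The lncRNA table was not used here.

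Counts were tested with edgeR 4.0.16 in R 4.3.3 (quasi-likelihood, TMM scaling, filterByExpr with a minimum count of 10, Benjamini-Hochberg over 15198 genes, threshold 0.05). Each SE was derived from the F statistic, as the size of the log2 difference over its square root. Alternatives used DESeq2 1.42.0, limma 3.58.1 on log2(FPKM + 0.1), + 1 or + 0.01 (mean FPKM of at least 0.1), other scalings and filters, a replicate block, and each library left out. The members and lists were chosen with earlier results of these data known. Full values are given for members past the threshold, the 4 of smallest p per complex and the c subunit genes; other members with values per library were chosen after their values were seen, by role. From each companion list, up to 2 genes of smallest p were to be named; others named were chosen after their values were seen. Same-numbered libraries were not paired by the labels.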

Additional observations from a re-analysis of the deposited data

How the results depend on the processing

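The number of genes called, 217, was 338 with library totals unscaled by TMM, 432 without a filter on low counts, 41 with the replicate number as a block, 1166 with DESeq2, and 0 to 397 when 1 library was left out (0 without TAC 1, where 2564 genes had an unadjusted p under 0.05; 397 without Sham 1). Deviations of same-numbered libraries were correlated at -0.136, -0.118 and -0.0959, so the numbers gave no sign of pairing. DESeq2 called 3 members of complex III, 2 of complex IV and 5 of complex V. With the block, complex IV had 0 called; without 1 library it had 0 to 1, and complexes III and V had 0 each. The median log2 difference of complex IV was 0.26 with limma on log2(FPKM + 1) and 0.35 to 0.46 without 1 library. That of complex V was 0.32 without TMM, 0.32 with limma on log2(FPKM + 0.1) and log2(FPKM + 0.01), and 0.30 on log2(FPKM + 1). Complex III ranged from 0.29 to 0.39 without 1 library. Uqcrc2 turned to -0.0021, -0.0020 and -0.0021 with limma at pseudocounts of 0.1, 1 and 0.01 and to a range of -0.01 (without TAC 1) to 0.18 (without TAC 3) when 1 library was left out, and Atp5k to -0.01 without TAC 2. The other members kept a positive estimate in each alternative that tested them, but limma on log2(FPKM + 1) gave 0.12 for Atp5g2. Leaving out 1 library moved Cyc1, Cycs, Atp5o, Atp5g1, Atp5s and Atp5sl by over 1.5 times from the estimate with all libraries (ranges 0.20 to 0.43, 0.19 to 0.50, 0.27 to 0.55, 0.13 to 0.39, 0.06 to 0.29 and 0.13 to 0.46). Other members also moved, such as Atp5a1 (0.22 to 0.45), Uqcr10 (0.16 to 0.28) and Cox7c (0.34 to 0.57). Without TMM the median of all genes was -0.06 and that of the members 0.27. The Atp5g1 share difference of -1.63 percentage points was -2.91 by CPM and -2.19 to -0.878 when 1 library was left out. The cause of these shifts was not tested. Depth limits Cox6b2, Cox7c, Atp5g2, Atp5k and Atp5l, each with a mean under 200 counts.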
